A study of Mus musculus and Meriones unguiculatus with 4 samples.

Results

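The Bcl-2 family decides whether the mitochondrial route of cell death is opened, and 10 of its genes are described here in the enamel knot region of gerbil and mouse tooth germs. The members are the guard genes Bcl2, Bcl2l1 and Mcl1, the effector genes Bax and Bak1, and the BH3-only genes Bad, Bid, Bbc3, Pmaip1 and Bcl2l11. They were found by symbol, ignoring case: all 10 had 1 row each among the 27632 loci of the mouse table, and 9 had 1 row each among the 25745 genes of the gerbil table. Bax had no gerbil row under its symbol. The remaining 9 were among the 13322 genes matched between the tables and among the 10159 that passed a filter on low values.

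Tooth germs were taken from the mandibles of wild-type gerbil (Meriones unguiculatus) embryos labelled embryonic day 15 and wild-type mouse embryos labelled embryonic day 13. The knot was cut out of fixed frozen sections by laser microdissection and sequenced from a SMARTer mRNA-Seq library, with 2 libraries per species and 4 in all. The gerbil libraries are named E21 and E23 and the mouse libraries PEK and SEK, after their column names. The labels leave these endings unexplained, and a stage read from E21 or E23 would not be the labelled one, so the libraries of a species may not be replicates and each SD and SE may include a difference in stage or region. The number of animals per library is not stated, and the depth of the libraries was not analysed here. The species also differ in labelled stage and in the unit of their tables, and these cannot be told apart from the species itself.

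Cells of the enamel knot, a signalling centre of the dental epithelium, stop dividing and are later removed by apoptosis. In mitochondrial apoptosis, Bax and Bak1 proteins form pores in the outer mitochondrial membrane and release cytochrome c, and the guards hold them back. BH3-only proteins report stress, loss of growth factors or DNA damage, and they bind the guards or switch on the effectors. Much of this control acts on the proteins, which were not measured.

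The BH3 stretch, through which the proteins of the family bind one another, is shown first for 9 members. Pmaip1 is named only. Each line is 45 coding bases of the mouse transcript with the longest reading frame (GENCODE M21, GRCm38), written 5′ to 3′. Capitals mark the leucine codon and, after 3 further codons, the codon of a small residue (glycine, alanine or serine) followed by that of aspartate.
Bcl2: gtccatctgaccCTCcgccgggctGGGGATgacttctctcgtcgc
Bcl2l1: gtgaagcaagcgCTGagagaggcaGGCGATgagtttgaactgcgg
Mcl1: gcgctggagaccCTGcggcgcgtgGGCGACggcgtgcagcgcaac
Bax: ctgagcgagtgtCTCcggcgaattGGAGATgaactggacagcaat
Bak1: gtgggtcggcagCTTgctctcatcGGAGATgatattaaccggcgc
Bad: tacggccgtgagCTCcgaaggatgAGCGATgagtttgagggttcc
Bid: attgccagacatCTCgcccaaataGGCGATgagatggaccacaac
Bbc3: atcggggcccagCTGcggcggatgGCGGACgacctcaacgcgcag
Bcl2l11: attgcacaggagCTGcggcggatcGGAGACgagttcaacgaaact

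The pattern occurred 1 time in the protein of each of these 9 genes, and 32.9% of 22500 mouse genes held it somewhere, so the match describes a known site and does not define one. The small residue is glycine in 7 of the 9, alanine in Bbc3 and serine in Bad. The pair most alike was Bbc3 and Bcl2l11, both BH3-only, with 28 of 45 bases identical (62.2%), but likeness did not follow role. Bax and Bid, and Bak1 and Bid, an effector with a BH3-only gene each, shared 55.6%, while the guard pairs shared 51.1% (Bcl2 with Bcl2l1, and Bcl2 with Mcl1) and 42.2% (Bcl2l1 with Mcl1). On the minus strand of GRCm38 lie Bcl2 at chr1:106712569-106712613 (exon 1), Bcl2l1 at chr2:152829691-152829735 (exon 2), Bax at chr7:45465991-45466035 (exon 3), Bak1 at chr17:27022525-27022569 (exon 4) and Bid at chr6:120897283-120897327 (exon 4). On the plus strand lie Mcl1 at chr3:95659424-95659468 (exon 1), Bad at chr19:6950780-6950824 (exon 3), Bbc3 at chr7:16313761-16313805 (exon 3) and Bcl2l11 at chr2:128147138-128147182 (exon 3).

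Levels are the authors' TPM (gerbil) or FPKM (mouse), rescaled so that each library sums to 1000000 over the 13322 matched genes. Differences between species are the gerbil mean minus the mouse mean on the scale log2(level + 1), after a trend with transcript length was removed from each library, and a difference on this scale understates the change of low genes. Without that correction, over 10 length classes, the centred median difference ran from -1.80 in the shortest class to 1.43 in the longest, so members of different length are moved by different amounts. A gene was called when, after correction, the lowest library of one species exceeded the highest library of the other by 2-fold or more. These calls are not significance tests: the 2 tables carry separate normalizations, and with 2 libraries on each side the smallest two-sided p of an exact permutation test is 0.333.

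All 8 dental epithelium markers, and the 8 of 9 enamel knot markers with rows in both tables, were above 0 in every library. So were all 8 dental mesenchyme markers, so a value above 0 does not tell the knot from the tissue around it. Several lists differed between the species in summed level. The sums are on levels without length correction, while the calls beside them are after it. By the same rule, 13.4% of all genes were called higher in gerbil and 14.6% in mouse. Knot markers summed to 1431 and 1490 in gerbil, against 3935 and 2483 in mouse, with 4 of 8 called higher in mouse and 0 in gerbil. Cdkn1a (1565 and 1019) and Wnt10a (744 and 618) made up most of that mouse sum, and Fgf4 and Fgf9 were also called. Shh made up most of the gerbil sum (963 and 1186, against 946 and 609 in mouse). Shh was not called (0.02 ± 0.32), nor were Dkk4 (0.19 ± 1.74), Wnt10b (-1.28 ± 0.79) and Bmp2 (-1.15 ± 2.13). Of 8 stress and handling genes, the 5 in both tables summed to 37.6 and 44.5 in gerbil, against 630 and 524 in mouse, with 3 called higher in mouse and none at 0. Most of the mouse sum was Ier2 (438 and 385), while Fos (-0.76 ± 0.79) and Atf3 (0.66 ± 0.25) were not called. Of 5 muscle genes, the 4 in both tables summed to 3.09 and 6.54 in gerbil, against 85.8 and 360 in mouse, with 3 called higher in mouse and Mylpf listed at 0 in E21. The 8 mesenchyme genes summed to 1843 and 3106 in gerbil, against 873 and 1211 in mouse, with 1 called higher in mouse. Of 5 endothelial genes, the 4 in both tables summed to 1.13 and 103 in gerbil, against 5.31 and 13.2 in mouse, with Emcn listed at 0 in E21, and of 6 blood and immune genes the 3 in both summed to 5.58 and 20.6, against 1.77 and 7.09. Their part in the differences below of Bbc3, Bad, Mcl1, Bcl2 and Bak1 was not tested. In bulk samples, fewer cells of a type and less RNA per cell cannot be told apart.

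In the gerbil libraries Bbc3 was close to the bottom of the expressed range and Bak1 was well above its mouse level, while the guard gene Mcl1 and the BH3-only gene Bad were lower in gerbil than in mouse. By the rule, 1 of the 9 matched members was called higher in gerbil (Bak1), where 13.4% of all 10159 genes were, and 4 of 9 were called higher in mouse (Bcl2, Mcl1, Bad and Bbc3), where 14.6% of all genes were. The other 4 were not called. In either direction the background was 28.0%. The median corrected log2 difference of the 9 members was -0.80, beside -0.01 over all genes tested. With the levels only rescaled, neither centred nor corrected, the median over all genes was 0.62 and the split of all genes moved to 3020 higher in gerbil and 1209 higher in mouse, against 1360 and 1487.

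**Figure D1:**
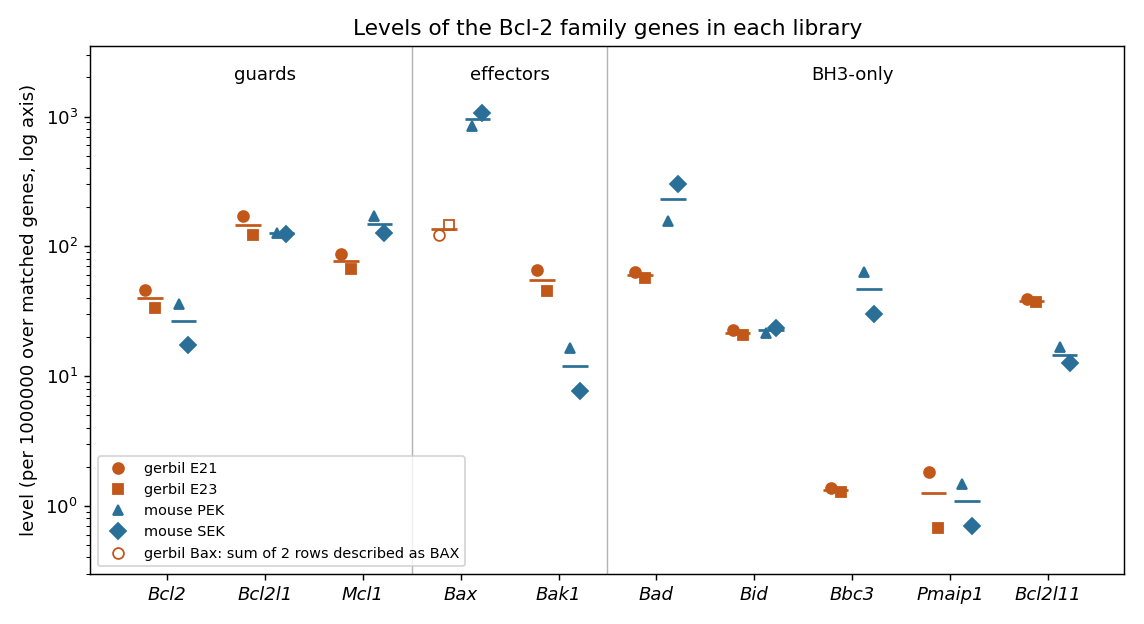
Level of each member in each library (log axis, per 1000000 over matched genes) by role, with gerbil left of mouse; points are libraries and bars are the mean of the 2 libraries of a species. Bbc3 stands at 1.36 and 1.27 in gerbil against 63.6 and 30.3 in mouse, while Bid overlaps between the species; the open gerbil Bax points are the sum of 2 rows without a symbol.

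Among the guards, which hold the effectors in check, Mcl1 was the clearest difference. Mcl1, a guard protein with a short lifetime, was at 86.6 in E21 and 67.4 in E23, against 171 in PEK and 127 in SEK. Both gerbil libraries were below both mouse libraries. The gerbil mean was 77.0 ± 13.6 and the mouse mean 149 ± 31.7 (SD over 2 libraries), and the corrected log2 difference was -1.70 ± 0.13 (SE), or 3.25-fold lower in gerbil. The call ended when levels were only rescaled (-0.94).

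Bcl2, the founding guard of the family, stood at 45.8 in E21 and 33.7 in E23, against 35.6 in PEK and 17.5 in SEK. The levels of the species overlapped, with E23 below PEK. Its transcript is long (9157 bases in the mouse annotation), and its corrected difference of -1.54 ± 0.21 was called higher in mouse. The length correction itself shifted it by -1.54: the centred difference without the correction was 0.00 and the difference of rescaled levels was 0.63, so the direction for Bcl2 is set by the correction. The call also ended with a pseudocount of 5 (-1.21) and with no filter on low values (-1.29).

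Bcl2l1, which encodes the guard Bcl-xL, was the guard at the closest levels in the species, at 171 and 123 in gerbil E21 and E23, against 127 and 125 in mouse PEK and SEK. E21 was above both mouse libraries and E23 just below them. The corrected difference of -0.80 ± 0.26 was not called, and it was 0.19 when levels were only rescaled. Bcl2l1 ranked high in every library, above 90.5% of the matched genes in E21, 85.6% in E23, 88.3% in PEK and 87.8% in SEK.

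Of the effectors, Bak1 was the member higher in gerbil. It was at 65.2 in E21 and 45.6 in E23, against 16.4 in PEK and 7.62 in SEK, so the lowest gerbil library lay above the highest mouse library. The gerbil mean was 55.4 ± 13.9 and the mouse mean 12.0 ± 6.20 (SD over 2 libraries), and the corrected difference was 2.14 ± 0.60 (SE), or 4.39-fold. The difference stayed above 0 under all 12 alternatives run, between 1.55 and 2.65, and the call ended without the length correction (1.55). In the mouse table all 9200 bases of the Bak1 locus (chromosome 17, positions 27019810 to 27029009, minus strand) lie inside a locus named Zbtb9 on the opposite strand, at 36.8 in PEK and 28.8 in SEK. In the annotation, the gene covering these 9200 bases on the opposite strand is Ggnbp1. The labels do not say whether reads were assigned by strand, so the mouse Bak1 level is uncertain, and so are those of Bad and Bid below.

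Bax was by level the largest member in mouse, at 849 in PEK and 1064 in SEK, above 98.9% and 99.0% of the matched genes. The annotated gene Gm45808 shares 915 of the 5205 bases of the mouse Bax locus, on the same strand. The mouse Bax level, and the ratios over it below, are therefore uncertain too. In gerbil, 2 rows without a symbol are described as apoptosis regulator BAX. They were noticed after the values had been seen and lie outside the symbol rule. The first row was at 123 in E21 and 110 in E23, and the second was listed at 0 in E21 and stood at 37.3 in E23, which is 25.3% of the sum there. The sum of the rows was 123 and 147, against 849 and 1064 in mouse. If the 2 rows are parts or copies of Bax, the corrected difference of the sum was -1.47 ± 0.04 and was called higher in mouse, but the call ended with a GC trend removed as well (-0.26). With 867 bases in the annotation, Bax lies in the shortest length class, and the correction shifted its difference by 1.97.

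**Figure D2:**
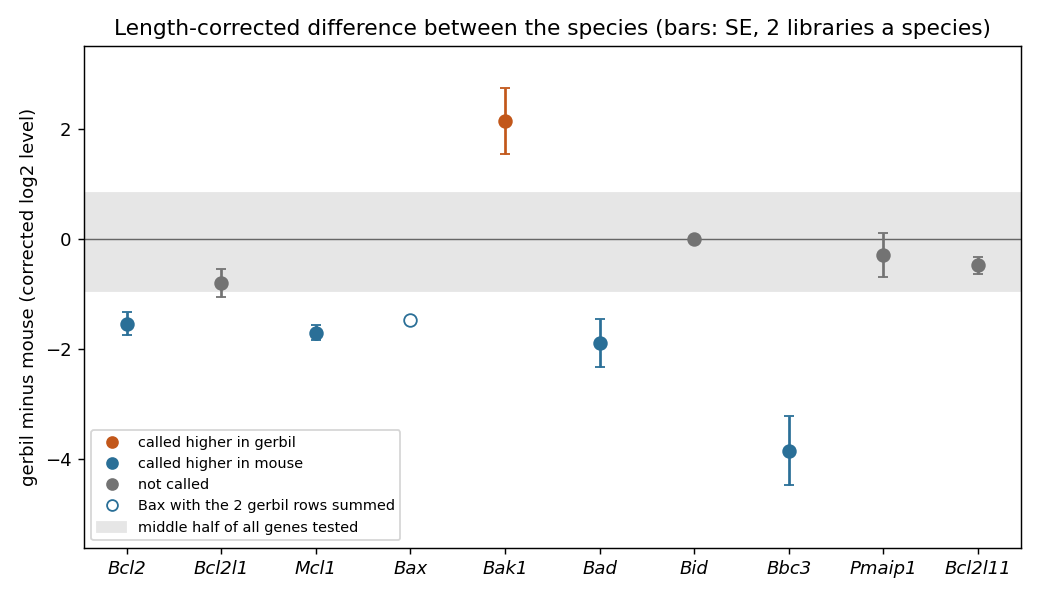
Gerbil minus mouse difference of each member (corrected log2 level; bars are the SE from 2 libraries per species), with the grey band holding the middle of all 10159 genes between the quartiles -0.95 and 0.84. Bak1 at 2.14 lies above the band and Bcl2, Mcl1, Bad and Bbc3 below it; the open point is Bax with its 2 gerbil rows summed.

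The BH3-only genes went different ways. Bbc3, which encodes Puma, a p53-inducible protein that binds every guard, was at 1.36 in E21 and 1.27 in E23, against 63.6 in PEK and 30.3 in SEK. The gerbil libraries lay far below the mouse ones. The gerbil mean was 1.32 ± 0.0582 and the mouse mean 47.0 ± 23.6 (SD over 2 libraries), and the corrected difference was -3.84 ± 0.62 (SE). It kept its call in all 11 alternatives that retain it, between -4.91 and -2.58, though leaving out a library can hardly end a call. With a GC trend removed as well, the difference was smaller (-2.65). This is a difference of values near the floor of the gerbil table: the deposited values were 0.18 and 0.15 TPM, above 27.5% and 25.6% of the matched genes, and the corrected difference corresponds to 14.3-fold.

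Bad, whose protein frees the effectors by binding Bcl2 and Bcl-xL when survival signals are withdrawn, was also lower in gerbil. It was at 63.9 in E21 and 56.9 in E23, against 157 in PEK and 303 in SEK. The gerbil libraries were alike and the mouse libraries lay apart, and the corrected difference was -1.89 ± 0.44, or 3.71-fold. The call ended with a GC trend removed as well (-1.38). The mouse Bad locus shares 590 of its 10038 bases with Gpr137 on the opposite strand (39.2 in PEK and 55.7 in SEK).

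Bid, which caspase-8 cleaves to link death receptors to mitochondria, stood at 22.6 in E21 and 20.7 in E23, against 21.5 in PEK and 23.6 in SEK. The libraries of the species interleaved, and the corrected difference was 0.00 ± 0.03, although it was -0.69 without the length correction. The mouse Bid locus shares 913 of its 24924 bases with Bcl2l13 on the opposite strand.

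Bcl2l11, which encodes Bim, a BH3-only protein induced when growth factors are lost, stood at 39.0 in E21 and 37.3 in E23, against 16.7 in PEK and 12.6 in SEK. On levels the species did not overlap and gerbil was higher, yet its transcript of 6896 bases is also long. The corrected difference was -0.48 ± 0.16 and not called, the centred one was 0.70, and with levels only rescaled it was 1.33 and called higher in gerbil. Its direction, like that of Bcl2, therefore differs between scales.

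Pmaip1, which encodes Noxa, a p53-inducible antagonist of Mcl1, was the lowest member in mouse and among the lowest in gerbil. It stood at 1.81 in E21 and 0.680 in E23, against 1.46 in PEK and 0.703 in SEK. The libraries overlapped, and the corrected difference of -0.29 ± 0.40 was smaller than its SE. Of the p53-inducible pair, the gerbil libraries thus held both Bbc3 and Pmaip1 below 2, while the mouse libraries held Pmaip1 below 2 and Bbc3 above 30.

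**Figure D3:**
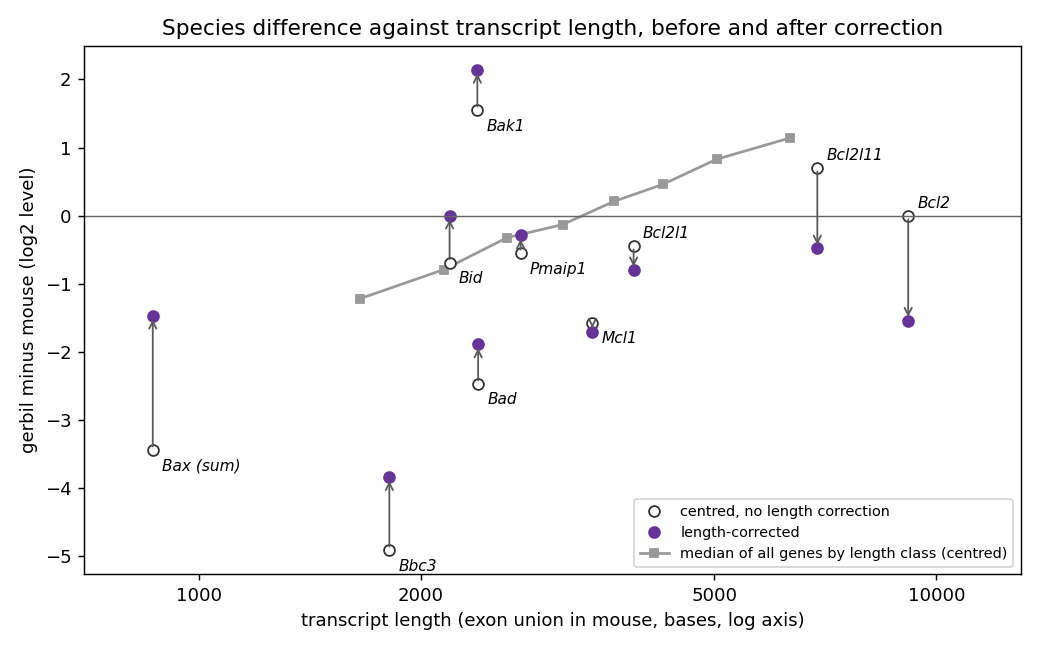
Gerbil minus mouse difference (log2 level) of each member against transcript length (bases, log axis) before the length correction (open) and after it (filled), with arrows joining each pair and squares for the median of all genes by length class (the shortest and longest class are not drawn). The shift was -1.54 for long Bcl2 (9157 bases), -1.18 for Bcl2l11 (6896), 1.08 for short Bbc3 (1814) and -0.13 for Mcl1 (3418).

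Ratios of members within a library do not depend on how the library was scaled, and they set the guards against the effectors. Mcl1 over Bak1 was 1.33 and 1.48 in gerbil E21 and E23, against 10.5 and 16.6 in mouse PEK and SEK. Bcl2l1 over Bak1 was 2.62 and 2.69 in gerbil, against 7.77 and 16.4 in mouse, and Bcl2 over Bak1 was 0.703 and 0.741 in gerbil, against 2.17 and 2.29 in mouse. All 3 ratios were lower in both gerbil libraries than in both mouse libraries, and so they were after the length correction (0.976 and 1.19 against 11.2 and 21.2 for Mcl1, 1.86 and 1.90 against 9.00 and 22.7 for Bcl2l1, 0.335 and 0.362 against 3.23 and 6.07 for Bcl2). The 3 share the Bak1 level, which is uncertain in mouse. After the correction Bak1 was higher, and each guard lower, in both gerbil libraries than in both mouse libraries. The direction of the corrected ratios follows from that, so they are not 3 further results. How other genes over Bak1 behave was not computed. The ratios over Bak1 and that of Bcl2 to Bcl2l1 were added after the values had been seen, since Bax had no gerbil row.

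Between the guards, Mcl1 over Bcl2l1 was 0.507 and 0.550 in gerbil E21 and E23, against 1.35 and 1.01 in mouse PEK and SEK, and 0.525 and 0.624 against 1.25 and 0.936 after the correction. Bcl2l1 thus exceeded Mcl1 in both gerbil libraries on both scales, while the mouse libraries had them nearer to parity. For Bcl2 over Bcl2l1 the scales differ: on levels the gerbil ratios of 0.268 and 0.275 lay between the mouse ratios of 0.279 and 0.140, and after the correction they were lower in gerbil (0.180 and 0.190 against 0.359 and 0.268). With the summed gerbil rows for Bax, Bak1 over Bax was 0.529 and 0.309 in gerbil, against 0.0193 and 0.00717 in mouse. Guards over Bax were higher in gerbil on levels, at 1.38 and 0.831 against 0.150 and 0.118 for Bcl2l1, 0.702 and 0.457 against 0.202 and 0.119 for Mcl1, and 0.372 and 0.229 against 0.0419 and 0.0164 for Bcl2. After the length correction the Bcl2l1 ratio was still higher in gerbil (0.565 and 0.389 against 0.269 and 0.322). The Mcl1 ratio was then lower in gerbil (0.297 and 0.243 against 0.335 and 0.302), and the Bcl2 ratios overlapped (0.102 and 0.0742 against 0.0965 and 0.0863). Bak1 over Bax stayed higher in gerbil, at 0.304 and 0.205 against 0.0299 and 0.0142.

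**Figure D4:**
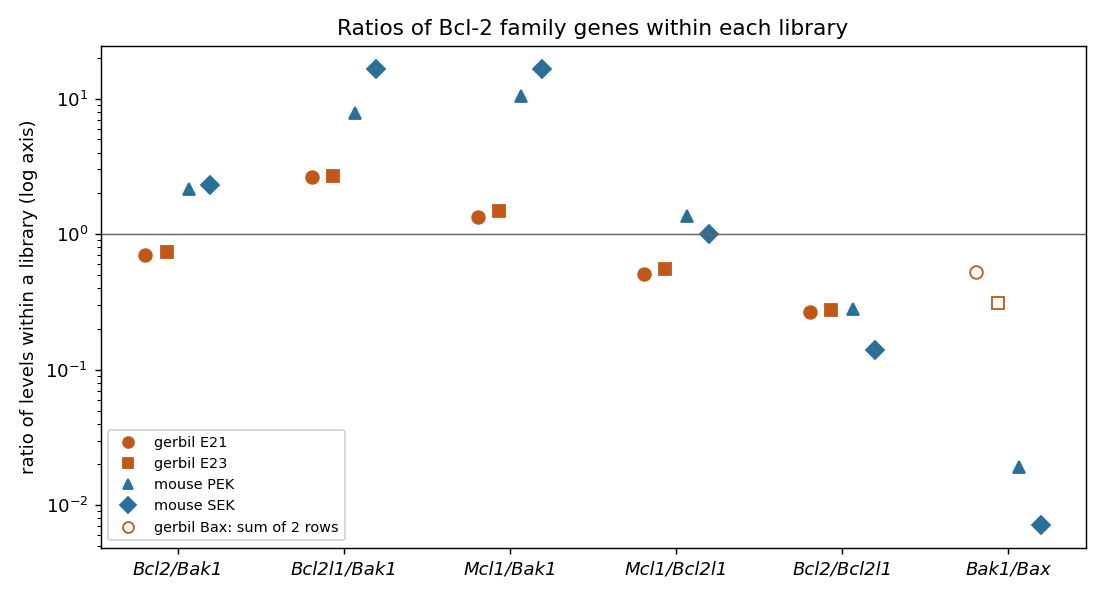
Ratio of 2 members within each library (levels without length correction, log axis), gerbil left of mouse. The 3 guards over Bak1 lie lower in gerbil, with Mcl1 over Bak1 at 1.33 and 1.48 against 10.5 and 16.6, while Bcl2 over Bcl2l1 overlaps; open points use the sum of the 2 gerbil Bax rows.

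The order of the members by level differed as well; shares and order here are on levels without length correction unless stated. Over the 9 members other than Bax, Bcl2l1 had the largest share of the summed level in gerbil, at 34.3% in E21 and 31.7% in E23, against 20.9% in PEK and 19.3% in SEK. Bad had 12.9% and 14.7% in gerbil, against 25.7% and 46.8% in mouse, and Bak1 13.1% and 11.8% in gerbil, against 2.68% and 1.18% in mouse. After the length correction Bcl2l1 had 31.5% and 28.3% in gerbil, against 22.7% and 23.6% in mouse, Bad 16.5% and 18.4% against 22.9% and 36.8%, and Bak1 16.9% and 14.8% against 2.52% and 1.04%, so the 3 kept their direction. In gerbil, Bak1 and Bad stood next to each other and changed places between E21 and E23, and so did Bcl2 and Bcl2l11. In mouse, Mcl1, Bad and Bcl2l1 filled the places below Bax, with Mcl1 above Bad in PEK and Bad above Mcl1 in SEK.

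Differences between the libraries of a species give the scale of the spread, with 1 library on each side and no replicate check. In gerbil, E23 was lower than E21 in 9 of 9 members. The share of all genes lower in E23 by any amount was not computed, so the 9 of 9 cannot be judged against it. The all-gene median was also below 0. On log2(level + 1) each member was lower by less than 2-fold. Of the members 0 passed 3-fold, where 0.915% of all genes were lower and 2.80% higher in E23. The largest gap was Pmaip1 (-0.74 on log2(level + 1)), then Bak1 (-0.51), Bcl2l1 (-0.48), Bcl2 (-0.43) and Mcl1 (-0.36). The all-gene median was -0.05, with quartiles of -0.34 and 0.22. Bbc3 (-0.05) and Bcl2l11 (-0.06) lay close to that median. Of all genes, 3.95% were at least 2-fold lower in E23 and 5.83% higher on that scale. On levels without the pseudocount, 1 of 9 members was at least 2-fold lower in E23, Pmaip1 (2.66-fold, between values near 1), where 5.75% of all genes were lower and 7.93% higher.

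In mouse, on log2(level + 1), SEK was at least 2-fold lower than PEK in 2 of 10 members, Bbc3 (-1.05) and Bak1 (-1.01), where 17.1% of all genes were, and at least 2-fold higher in 0, where 5.89% were. None passed 3-fold, where 4.72% of all genes were lower and 2.25% higher in SEK. On levels without the pseudocount, 4 of 10 were at least 2-fold lower in SEK, where 22.6% of all genes were and 8.06% were higher. These were Bak1 (2.15-fold), Bbc3 (2.10-fold), Pmaip1 (2.08-fold) and Bcl2 (2.04-fold, -0.99 on log2(level + 1)). On the other side, Bad was 1.93-fold higher in SEK (0.95). Bax (0.32) and Bid (0.13) were the other members higher in SEK. The all-gene median was -0.21, with quartiles of -0.79 and 0.30, and the median absolute difference between the libraries over all genes was 0.29 in gerbil and 0.55 in mouse.

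**Figure D5:**
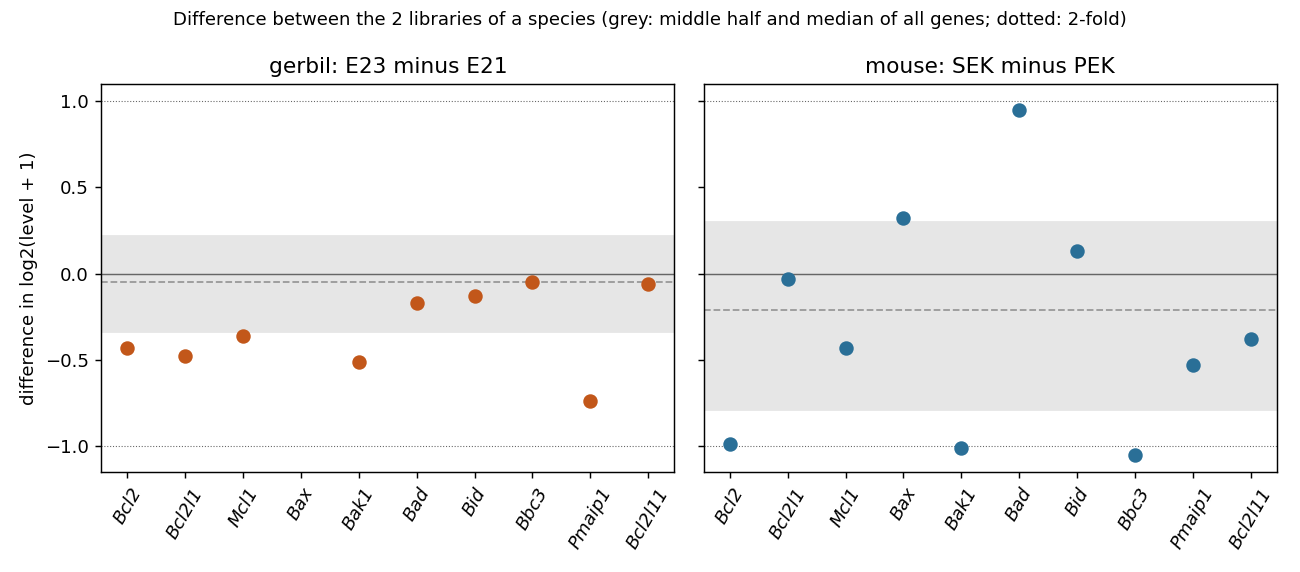
Difference between the 2 libraries of each species for each member in log2(level + 1), with the grey band and dashed line giving the quartiles and median of all 10159 genes and dotted lines at 2-fold. Gerbil members lie between -0.74 and -0.05, and mouse members between -1.05 for Bbc3 and 0.95 for Bad; Bax has no gerbil point.

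Other genes of the route were taken from lists of relatives, mitochondrial partners and controllers of the members. Beside the counts called in these lists, 13.4% of all genes were called higher in gerbil and 14.6% higher in mouse. Of 15 further Bcl-2 family genes, 6 could be compared, and 0 were called higher in gerbil and 1 higher in mouse. That gene was Bnip3l, a mitophagy receptor, at 213 and 241 in gerbil, against 723 and 496 in mouse (-1.91 ± 0.25). The related gene Bnip3 (0.97 ± 0.86) and the effector-like gene Bok (0.77 ± 0.35), the highest of the rest, were not called. The list's median was 0.45. Bcl2l2, which encodes the guard Bcl-w, had rows at 41.2 and 37.1 in gerbil, against 1128 and 1059 in mouse. No difference is given for it, because the mouse locus of 15549 bases carries no Ensembl ID and covers the annotated gene Pabpn1 as well as Bcl2l2.

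Of 15 genes acting with or after pore formation, 11 could be compared, with 1 called higher in gerbil, 1 higher in mouse and a median of -0.09. Vdac3, an outer membrane channel gene, was at 494 and 437 in gerbil, against 210 and 355 in mouse (1.67 ± 0.21). Endog, which encodes a mitochondrial nuclease, was at 4.52 and 4.59 in gerbil, against 24.9 and 43.7 in mouse (-1.51 ± 0.25). Vdac2, whose protein binds Bak1 (0.14 ± 0.31), and Mtch2, the docking site of Bid (-0.76 ± 0.26), were not called.

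Of 17 genes that control members, 14 could be compared, with 1 called higher in gerbil, 0 in mouse and a median of 0.32. Usp9x, which encodes a deubiquitinase that stabilizes Mcl1 protein, was at 285 and 300 in gerbil, against 32.6 and 10.1 in mouse (1.64 ± 0.37). Ywhae (0.81 ± 0.19) and Ywhab (0.76 ± 0.28), which encode 14-3-3 proteins that can hold Bad in the cytosol, were not called. Trp53, named outside the rule as the inducer of Bbc3 and Pmaip1, was at 334 and 216 in gerbil, against 459 and 294 in mouse, and was not called (-0.09 ± 0.51).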

How the data were processed

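RNA was measured in 2 gerbil and 2 mouse libraries. Gerbil values are TPM per gene and mouse values FPKM per assembled locus, both as deposited by the authors. Tools listed per the submitters' processing notes are STAR 2.7.1a, RSEM 1.3.1 and cutadapt 2.8, with GRCm38 and mm10 as builds; their roles are not stated, and no gerbil build is listed. A further 4 per-sample columns (gerbil counts and RPKM) were not used, so depth was not analysed here. Symbols occurring once in each table were matched, each library was rescaled to 1000000, genes whose levels averaged 1 or more and that have a length in GENCODE M21 were kept, and the median deviation along transcript length in 40 bins was subtracted on the log2(level + 1) scale (Python 3.11.15, pandas 2.3.3). The fit was tested on simulated data with large planted changes, none in low genes, and with no trend along GC. That test does not show how reliable the calls of the members are. The members, lists and length correction were chosen with earlier results of these data known. All members are named; from the other lists, called genes and the 2 highest uncalled ones are.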

Additional observations from a re-analysis of the deposited data

How the results depend on the processing

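Under the 12 other settings run for the species difference, Bak1 stayed above 0 and Mcl1, Bad and Bbc3 stayed below 0 wherever they were kept, and the minimum of 10 in each species drops Bbc3 and Pmaip1. The Bcl2 difference was 0.00 without the length correction and 0.63 with levels only rescaled, so its direction depends on that correction. Without the length correction, 0 members were called higher in gerbil (18.4% of all genes) and 3 higher in mouse (Mcl1, Bad and Bbc3; 19.4%). With levels only rescaled, 2 were called higher in gerbil (Bak1 and Bcl2l11; 29.7%) and 2 in mouse (Bad and Bbc3; 11.9%). Leaving out each library in turn gave 1 member higher in gerbil and 4 higher in mouse each time, by name the same members. The share of all genes called was then 16.6% to 19.2% in gerbil and 18.5% to 20.2% in mouse. Both shares exceeded the 13.4% and 14.6% with all libraries. A call rests on the nearest libraries, so leaving out a library can widen a gap but hardly narrow it. These settings are therefore no check on the calls. Between SEK and PEK, 2 members passed 2-fold and 0 passed 3-fold; on levels without a pseudocount, a setting added after seeing the data, 4 passed 2-fold, and 1 did between E23 and E21, against 0. Over all genes, 1360 were called higher in gerbil and 1487 in mouse; a gap above 0 in place of 2-fold gave 3750 and 3783, the minimum of 10 gave 663 and 748 of 6597, and rescaled levels gave 3020 in gerbil. The alternatives that need the gerbil RPKM or counts were not run. No paired analysis was possible because the columns carry no sample number and no significance test was run. Without depth, counting error for Bbc3 and Pmaip1 in gerbil is not given.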
